A study of Homo sapiens with 6 samples.

Results

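KLK3, TMPRSS2, FOXA1, HOXB13, CDH1 and VIM are 6 genes by which a prostate cell line is recognised. KLK3 (prostate specific antigen) and TMPRSS2 are androgen-responsive proteases, FOXA1 and HOXB13 are transcription factors of the prostate lineage, CDH1 is the epithelial cadherin and VIM is the intermediate filament of mesenchymal cells. They were taken by name from the 22933 gene symbols of the deposited table, and all 6 were found there.

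RNA-Seq was performed on PC-3 cells, an epithelial line from a bone metastasis of a prostate adenocarcinoma. All cells carried a Tet-On transactivator (rtTA2) delivered by a first retrovirus with G418 selection. They then received a second retrovirus with the red fluorescent protein tdTomato under the pPGK promoter. In the group TTP-tdTom this virus also carries TTP behind the doxycycline-responsive Tight promoter, and in the control group tdTom it does not. Each group was a pool of infected cells sorted for tdTomato, not a clone. There were 3 samples of each group, and all 6 samples were collected after 4 h in 300 ng/ml doxycycline (Dox), so that Dox itself is shared by both groups. TTP, the product of ZFP36, is an RNA-binding protein that brings mRNAs with AU-rich elements to decay.

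The deposited table holds 1 pooled value per group and locus in FPKM, a count of fragments scaled by transcript length and by the mapped fragments of the library. The spread between the 3 samples of a group was therefore not analysed here, no difference below has a replicate check, and the table gives no fragment counts, so that the counting error of each value was not computed. At the ZFP36 locus the FPKM was 5.56 in tdTom and 5.54 in TTP-tdTom, so the values at this locus do not check the label, TTP protein was not analysed here, and the second group is called the group labelled TTP-tdTom. Whether transgene fragments were counted at that locus was not tested. All ratios are given as the group labelled TTP-tdTom over tdTom.

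In normal luminal cells of the prostate, androgen signalling acts together with FOXA1 and HOXB13 at the enhancers of genes such as KLK3 and TMPRSS2. PC-3 is known as an androgen-independent line with mixed epithelial and mesenchymal features. Epithelial cells are joined by CDH1 through the catenins, whereas repressors such as ZEB1, SNAI1 and SNAI2 silence CDH1 in cells with a mesenchymal programme, of which VIM and CDH2 are the usual markers.

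In both groups VIM was by far the most abundant of the 6 transcripts and HOXB13 the next, FOXA1, TMPRSS2 and KLK3 lay at or near an FPKM of 1 to 3, and CDH1 was near 0. The mesenchymal marker was thus present at 56.7 times the level of HOXB13 in tdTom and at 39.0 times in the group labelled TTP-tdTom. FOXA1 ranked above TMPRSS2 in tdTom, by 1.64-fold, and below it in the group labelled TTP-tdTom, by 1.56-fold. VIM, HOXB13, KLK3 and CDH1 held the same places in both orders. VIM and HOXB13 were set apart from their lower neighbours by 7.02-fold or more in both groups. For FOXA1, TMPRSS2 and KLK3, which lay within 2.38-fold of their neighbours among these, it cannot be said without the spread which differ.

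**Figure D1:**
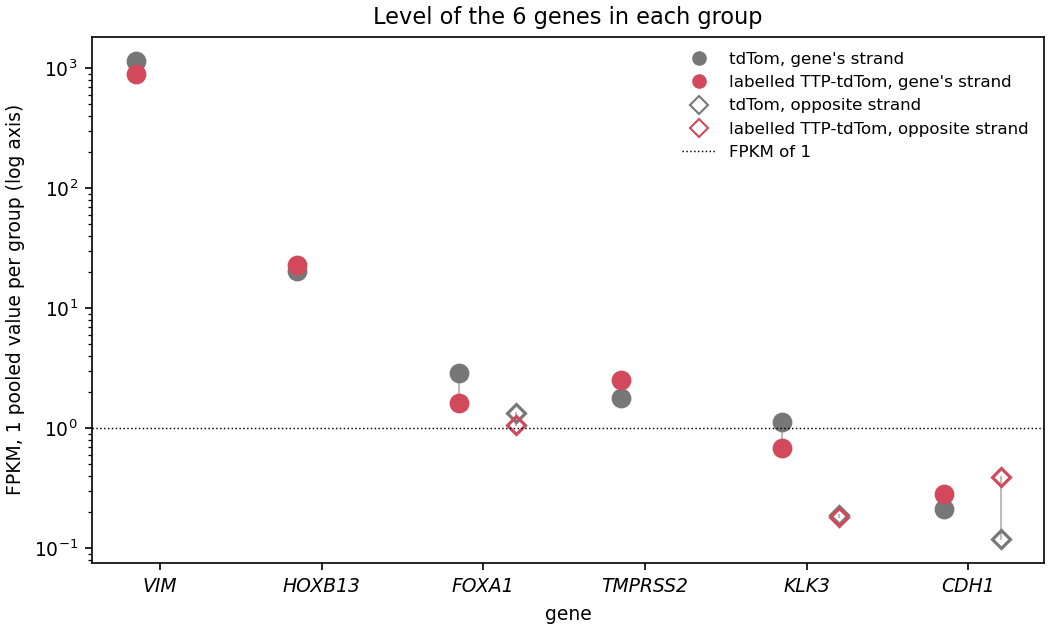
FPKM of the 6 genes on a log axis, grey for tdTom and red for the group labelled TTP-tdTom, with 1 pooled value per group. Filled circles are the locus on the gene's own strand and open diamonds a locus read on the opposite strand, found for FOXA1, KLK3 and CDH1. VIM stands highest, HOXB13 next, and CDH1 below 1 on both strands.

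VIM lies on chromosome 10 of GRCh37 from 17270258 to 17279592 (RefSeq NM_003380). Its FPKM was 1158.74 in tdTom and 898.947 in the group labelled TTP-tdTom, which left 77.6% of the control level and a log2 ratio of -0.37. VIM ranked 47 among the 22933 gene symbols in tdTom and 57 in the group labelled TTP-tdTom. The transcript that marks the mesenchymal side of PC-3 was therefore among the most abundant of the cell in both groups.

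HOXB13, a homeobox factor whose expression in the adult is largely confined to prostate and hindgut, lies on chromosome 17 from 46802127 to 46806111 (NM_006361). Its FPKM was 20.4 in tdTom and 23.1 in the group labelled TTP-tdTom, a log2 ratio of 0.17. The value was higher in the group labelled TTP-tdTom, where most transcripts were lower: of 12032 gene symbols at or above 1 FPKM in each group, 9770 had a lower value there. HOXB13 stood at percentile 92.2 of the ratios of those symbols. Among the 4801 symbols with a mean FPKM from 10 to 100, it stood at percentile 96.8.

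FOXA1, the forkhead pioneer factor that opens chromatin at enhancers, lies on chromosome 14 from 38058125 to 38064325 (NM_004496). Its FPKM was 2.91 in tdTom and 1.62 in the group labelled TTP-tdTom, so that 55.6% of the control level was left, with a log2 ratio of -0.85. A further assembled locus on the opposite strand carried the same RefSeq name. It had an FPKM of 1.35 in tdTom and 1.05 in the group labelled TTP-tdTom, or 46.4% and 65.0% of the FOXA1 strand, and its log2 ratio was -0.36. Both strands were lower in the group labelled TTP-tdTom, and the gene's own strand differed more.

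TMPRSS2, a transmembrane serine protease of luminal cells, lies on chromosome 21 from 42836383 to 42880085 (NM_001135099 and NM_005656). Its FPKM was 1.78 in tdTom and 2.53 in the group labelled TTP-tdTom, a 1.42-fold higher value with a log2 ratio of 0.51. TMPRSS2 was the only one of the 6 whose 3′UTR held the heptamer TATTTAT, the core of AU-rich elements, searched on the transcript strand of the longest 3′UTR of GENCODE release 29. The copy begins at base 1481 of a 3′UTR of 1591 bases, and it is shown here with 10 bases on each side and the heptamer in capitals, because it marks the member whose 3′UTR has this element.
TMPRSS2: tgccccttctTATTTATgtgaacaact
The same heptamer was found in 36.5% of the 10383 gene symbols at or above 1 FPKM in each group that have such a 3′UTR. The median log2 ratio was -0.44 for the symbols with the heptamer and -0.18 for those without it, so that TMPRSS2 at 0.51 lay above both medians. A match describes the sequence and is not a measured binding site. The 3′UTRs of VIM, HOXB13, FOXA1, KLK3 and CDH1, of 322, 2027, 1381, 947 and 2049 bases, held 0 copies, although those of VIM and FOXA1 were rich in A and T (67.7% and 65.0%).

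KLK3, the secreted protease measured in blood as prostate specific antigen, lies on chromosome 19 from 51357528 to 51364020, with 4 RefSeq names. Its FPKM was 1.12 in tdTom and 0.681 in the group labelled TTP-tdTom, a log2 ratio of -0.71. A locus on the opposite strand had an FPKM of 0.189 and 0.181. The KLK3 strand was thus above its opposite strand in both groups, and both lay close to an FPKM of 1 or below it.

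CDH1 lies on chromosome 16 from 68771195 to 68869444 (NM_004360), and its RefSeq name stands at 1 locus on each strand. On the gene's own strand its FPKM was 0.210 in tdTom and 0.282 in the group labelled TTP-tdTom, a log2 ratio of 0.42. The locus on the opposite strand had an FPKM of 0.119 and 0.390, a log2 ratio of 1.71, and it is the one that the selection by summed FPKM takes. The strand of a locus was read from the order of the identifiers, which gave the annotated strand for 99.7% of 5094 genes checked. Both CDH1 loci were near 0 in both groups, and the larger ratio belongs to the strand that does not encode the cadherin.

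A level near 0 was judged by genes of cells that a PC-3 culture should not hold. The list holds 14 genes of fibroblasts, smooth muscle, leukocytes and endothelium, of which CD68 shared its row with neighbouring genes and gave no value of its own. Read on their own strand, the other 13 had an FPKM from 0.0595 to 4.34 in tdTom with a median of 0.224, and from 0.0473 to 4.56 in the group labelled TTP-tdTom with a median of 0.236. They summed to 7.97 and 8.15. The highest value in each group was that of COL1A1, a fibrillar collagen, and the other 12 ended at 0.944 and 0.793. CDH1, at 0.210 and 0.282, was close to the median of these genes in both groups. HOXB13 and VIM lay above all 13 in both groups. FOXA1 and TMPRSS2 lay above 12 of them in both groups and below COL1A1, and KLK3 did so in tdTom only. Fewer cells of a type and less RNA per cell cannot be told apart in such bulk samples.

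CDH1 was the 1 gene of the 6 under an FPKM of 1 in both groups, beside 9613 of all 22933 gene symbols. KLK3 was under it in the group labelled TTP-tdTom. Under 0.1 in both groups were 0 of the 6, beside 2140 of all gene symbols. The other 4 stood above 1 in each group, namely VIM, HOXB13, FOXA1 and TMPRSS2. FOXA1 alone was lower by at least 1.5-fold, or 1 of 4, where 22.4% of all gene symbols at that level were. None of the 4 was higher by at least 1.5-fold, against 1.07% of all gene symbols. With 1 value per group these are counts past a fold and not calls of a test. The median log2 ratio of the 4 genes was -0.096, and that of all gene symbols at that level was -0.24. Relative to that median, the log2 ratio was -0.60 for FOXA1, -0.12 for VIM, 0.42 for HOXB13 and 0.75 for TMPRSS2, so that TMPRSS2 passed 1.5-fold higher on this scale. With a minimum FPKM of 0.1, KLK3 would be counted as lower and CDH1, by its opposite-strand locus, as higher. At that minimum, 19.0% of all gene symbols were lower by 1.5-fold and 10.5% were higher.

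The width of the ratios over all gene symbols depended on the level. From a mean FPKM of 1 to 3, where FOXA1 and TMPRSS2 lie, the log2 ratios of 2707 symbols ran from -1.04 to 0.89 between the percentiles 5 and 95. FOXA1 stood at percentile 7.83 of that class and TMPRSS2 at 89.9, both within this range. From 0.1 to 0.5, the class of CDH1, it ran from -1.36 to 1.83, and at 100 and over, the class of VIM, from -0.86 to 0.058. HOXB13 was the only one of the 6 outside the range of its class, which ended at 0.13. These ranges describe all gene symbols and hold real differences as well as error, so they are no measure of replicate spread.

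**Figure D2:**
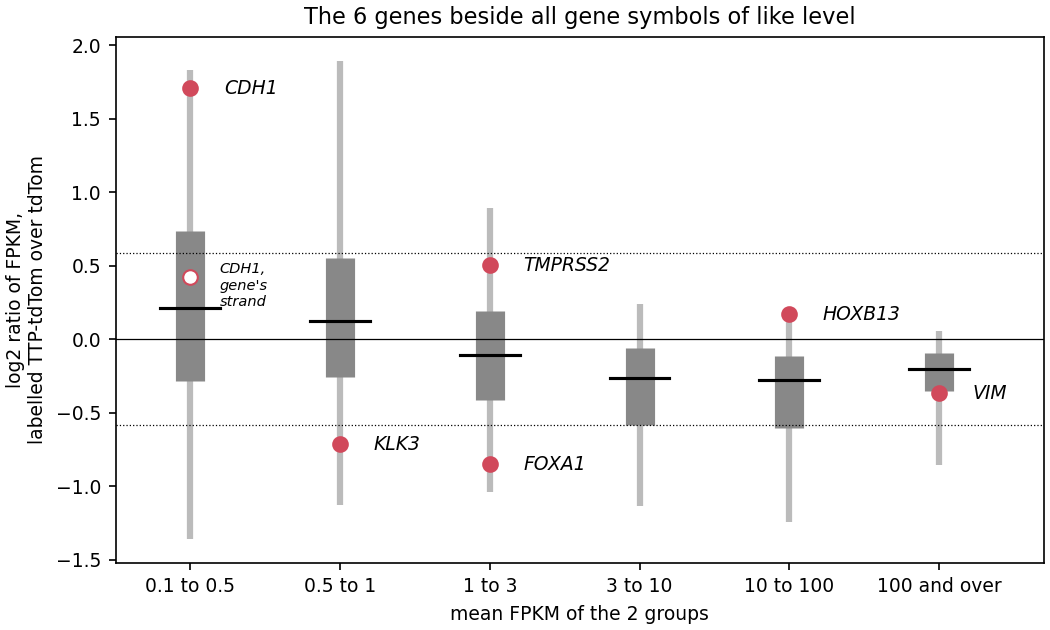
Log2 ratio of FPKM, labelled TTP-tdTom over tdTom, by the mean FPKM of the groups. Thin bars span percentiles 5 to 95 of all gene symbols in a class, thick bars the quartiles, black lines the median and dotted lines 1.5-fold; red points are the 6 genes and the open point is CDH1 on its own strand. HOXB13 lies just above the bar of its class and the other 5 lie within theirs.

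Many androgen-responsive genes were low in both groups, at a share near that of all gene symbols. Of 14 such genes, 7 had an FPKM under 1 in both groups, beside 9613 of all 22933 gene symbols. The 7 included the kallikreins KLK2 (0.333 and 0.434) and KLK4 (0.0898 and 0.102). The membrane peptidase FOLH1 (0.245 and 0.352) and the acid phosphatase ACPP (0.289 and 0.404) were also among them. The most abundant was STEAP1, a metalloreductase family member of the prostate cell surface, at 24.5 and 18.4. It stood 22.0-fold above KLK3 in tdTom. Of the 6 genes that reached 1 FPKM in each group, STEAP2 was lower by at least 1.5-fold (8.46 and 5.16) and 0 were higher. The count of 1 of 6 is near the 22.4% of all gene symbols, and relative to their median STEAP2 was short of 1.5-fold (-0.47). On that scale TMPRSS2 was higher by at least 1.5-fold (0.75), as were 3.04% of all gene symbols. The median log2 ratio of the 6 genes, before centring, was -0.43. TMPRSS2 was the only one of the 6 with a higher value in the group labelled TTP-tdTom.

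Among 10 transcription factors of the lineage, 5 reached 1 FPKM in each group. FOXA1, GATA2 and SOX9 were lower by at least 1.5-fold in the group labelled TTP-tdTom, or 3 of 5 against 22.4% of all gene symbols at that level, and 0 were higher, against 1.07%. SOX9, a factor of prostate development, had an FPKM of 39.8 in tdTom, the highest of the list there, and 18.1 in the group labelled TTP-tdTom, below HOXB13, a log2 ratio of -1.14. GATA2, a zinc finger factor that binds luminal enhancers, had an FPKM of 9.95 and 5.10, a log2 ratio of -0.96. The ETS factor SPDEF stood at 1.18 and 1.53. HOXB13 and SPDEF were therefore higher by less than 1.5-fold. Relative to the median of all gene symbols, SPDEF was higher by at least 1.5-fold (0.62), as were 3.04% of all gene symbols. FOXA1 (-0.60), GATA2 (-0.72) and SOX9 (-0.90) stayed lower by at least 1.5-fold on that scale, beside 12.9% of all gene symbols. The minimum of 1 FPKM left out genes with higher values. TP63, the factor of basal cells, had 0.832 and 1.31, a log2 ratio of 0.66 and past 1.5-fold. GRHL2 had 0.999 and 1.45, a log2 ratio of 0.54. GATA3 (-0.51), SOX2 (-0.12) and ELF3 (-0.071), under 1 in both groups, had lower values.

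**Figure D3:**
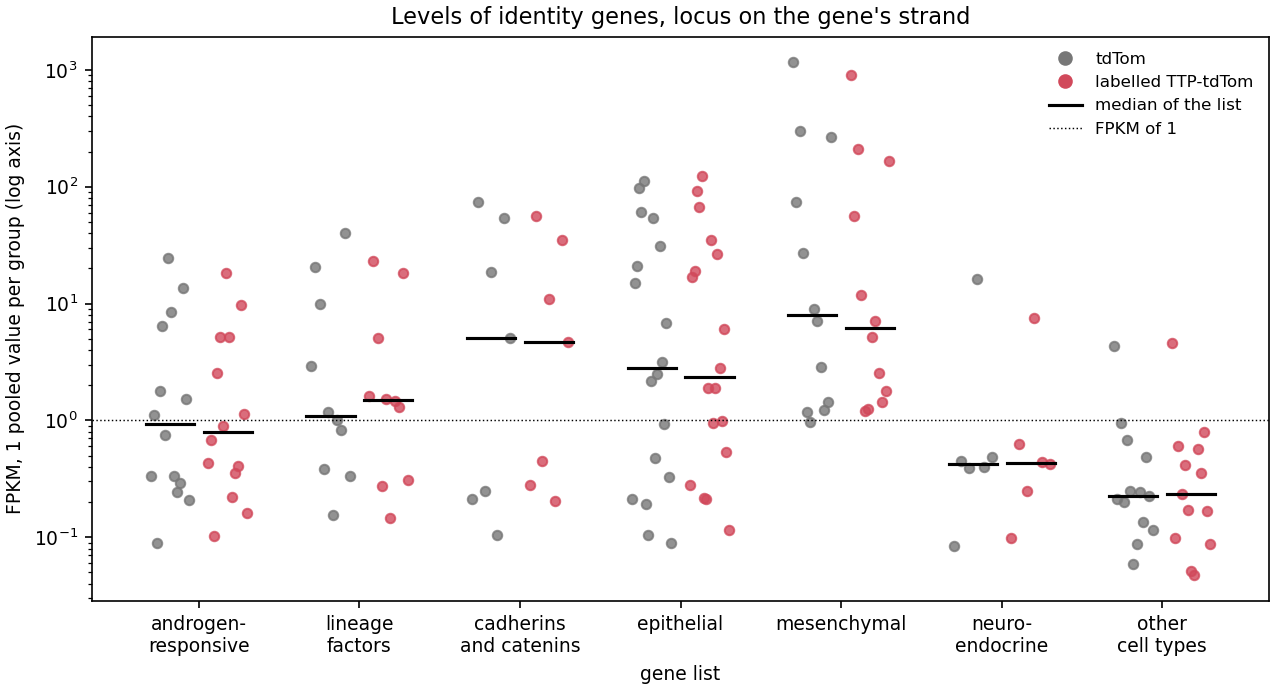
FPKM on a log axis of each gene of 7 lists, grey for tdTom and red for the group labelled TTP-tdTom, at the locus on the gene's own strand, leaving out genes that share a row with another symbol. Black lines are list medians and the dotted line is an FPKM of 1. The mesenchymal genes lie near or above 1, whereas the neuroendocrine genes other than ENO2 and 12 of 13 genes of other cell types lie below it.

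The most abundant cadherin transcript of the list was that of CDH2, the neural cadherin. Its FPKM was 73.8 in tdTom and 56.1 in the group labelled TTP-tdTom, which is 350.7-fold and 198.6-fold the level of CDH1 on its own strand. With CDH1 near 0 (0.210 and 0.282), the size of these ratios and the gap between them are uncertain. CDH3, the placental cadherin, was as low as CDH1 (0.247 and 0.449). The catenins that bind cadherin tails were present: CTNNB1 had an FPKM of 54.3 and 35.3, JUP had 5.07 and 4.68, and the row of CTNND1, which also names a readthrough transcript, had 91.4 and 81.4. PC-3 is known for the loss of alpha-catenin. CTNNA1, which encodes alpha-catenin, was not near 0, with an FPKM of 18.6 in tdTom and 10.9 in the group labelled TTP-tdTom. Its value by exon was not analysed here. All 5 junction genes that reached 1 FPKM in each group had a lower value in the group labelled TTP-tdTom, as had 9770 of 12032 gene symbols. The difference was at least 1.5-fold for 2 of the 5 (CTNNA1 and CTNNB1), beside 22.4% of all gene symbols. Relative to the median of all gene symbols, JUP and CTNND1 turned to a higher value, and CTNNA1 (log2 ratio -0.53) and CTNNB1 (-0.38) were short of 1.5-fold, which leaves 0 of 5.

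Epithelial genes other than CDH1 spanned a wide range of levels. The simple keratins KRT18 (98.2 and 91.5), KRT7 (112.4 and 124.7), KRT19 (60.2 and 67.1) and KRT8 (20.9 and 19.1) were close in the groups, as was the adhesion molecule EPCAM (15.1 and 16.8). The basal keratins KRT5 (0.191 and 0.216) and KRT14 (0.103 and 0.212) were near 0. CLDN7 (0.477 and 0.958), the splicing factor ESRP1 (0.925 and 0.983) and the transcription factors OVOL1 (0.331 and 0.538) and OVOL2 (0.0898 and 0.116) were under 1 in both groups as well. CLDN3 (2.18 and 1.91), OCLN (2.47 and 1.88) and DSP (3.18 and 2.81), of tight junctions and desmosomes, lay between the extremes. Of the 11 genes among 18 that reached 1 FPKM in each group, only CLDN4, a claudin of tight junctions, was lower by at least 1.5-fold (54.5 and 35.3), and none was higher, beside 22.4% and 1.07% of all gene symbols. Relative to their median CLDN4 was short of 1.5-fold (-0.38). Their log2 ratios ran from -0.63 to 0.16 with a median of -0.16. VIM stood 11.8-fold above KRT18 in tdTom and 9.82-fold in the group labelled TTP-tdTom.

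Of 13 mesenchymal genes, 12 reached 1 FPKM in each group, and ZEB1, SNAI2 and CD44 were lower by at least 1.5-fold. That is 3 of 12, near the 22.4% of all gene symbols, and relative to their median only ZEB1 was (-0.96). ZEB1, the zinc finger repressor of CDH1, had an FPKM of 27.2 in tdTom and 11.8 in the group labelled TTP-tdTom, a log2 ratio of -1.20 and the lowest of the list. SNAI2 had 8.98 and 5.17, and CD44, a hyaluronan receptor, had 266.7 and 165.9. The repressor SNAI1, short of 1 FPKM in tdTom, went the other way, with 0.965 and 1.26, a log2 ratio of 0.38. Of the 12 genes, 9 had a lower value in the group labelled TTP-tdTom and 3 a higher one. The 3 were S100A4 (log2 ratio 0.32), SPARC (0.24) and ZEB2 (0.026). FN1, which encodes fibronectin, had 298.2 and 210.5. ZEB2 (1.18 and 1.20), TWIST1 (7.11 and 7.08) and TWIST2 (2.86 and 2.56) were close in the groups. The median log2 ratio of the 12 was -0.28, near that of all gene symbols, and VIM at -0.37 lay on the same side of 0.

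**Figure D4:**
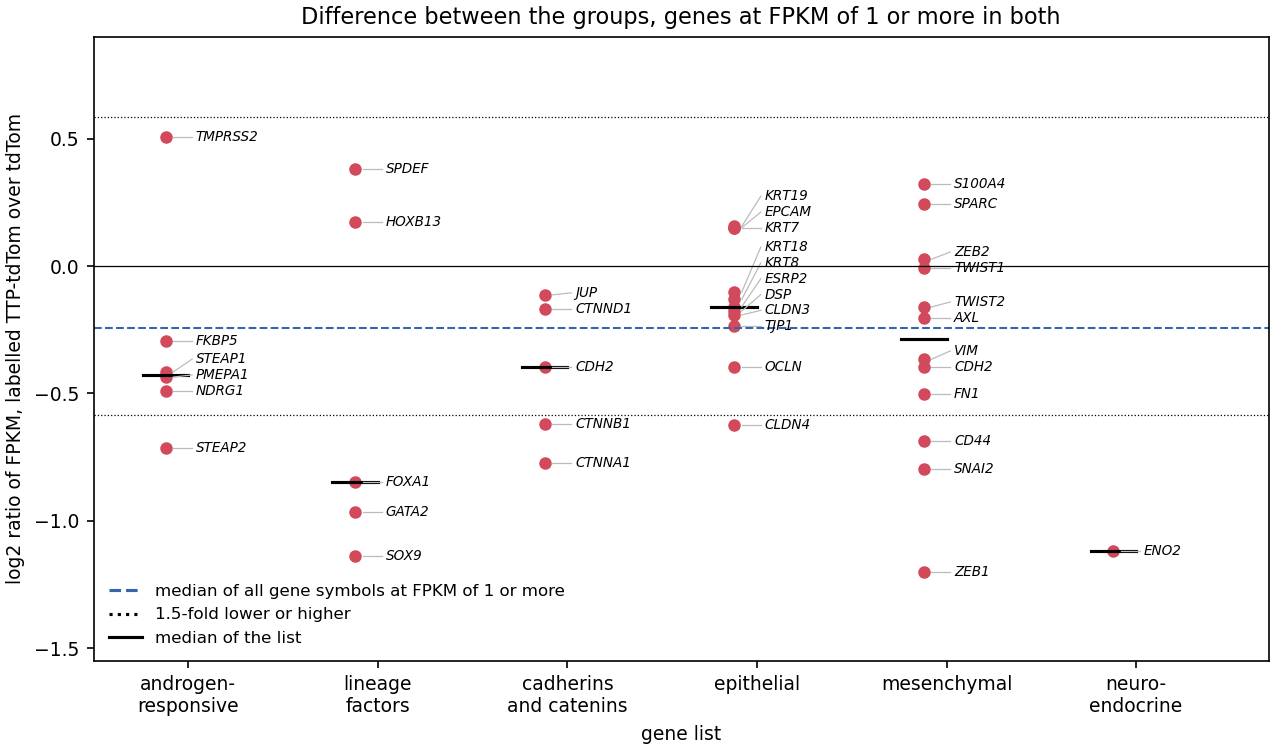
Log2 ratio of FPKM, labelled TTP-tdTom over tdTom, for each gene that reached 1 FPKM in each group, by list. Black lines are list medians, the dashed line is the median of all such gene symbols (-0.24) and dotted lines mark 1.5-fold. SOX9, ZEB1 and ENO2 have the lowest ratios, and TMPRSS2 the highest.

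Neuroendocrine genes, which mark another fate of prostate cancer cells, were mostly low when read on their own strand. On their own strand, 5 of the 6 had an FPKM under 1 in both groups, among them the granule protein CHGA (0.0847 and 0.0982) and the synaptic vesicle protein SYP (0.392 and 0.251). ENO2, the neuronal enolase that is also made outside neuroendocrine cells, was the exception, with an FPKM of 16.3 in tdTom and 7.53 in the group labelled TTP-tdTom. It was the 1 gene of the list that reached 1 FPKM in each group. The share of all gene symbols under 1 FPKM at own-strand rows was not computed. At the rows taken by RefSeq names and summed FPKM, 3 of the 6 were under 1 in both groups. That share is near that of all gene symbols, 9613 of 22933. Those rows of CHGA (0.142 and 1.11) and SYP (1.30 and 0.649) were not on the gene's own strand.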

How the data were processed

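PC-3 cells of 2 groups, 3 samples each, were profiled by strand-specific paired-end RNA-Seq. The authors aligned reads to Hs37D5 (GRCh37 with decoy sequence) with TopHat2 2.0.13 and assembled and compared transcripts with Cufflinks 2.2.1, per the submitters' processing notes. The deposited FPKM values are 1 per group at each of 406165 loci. Columns with the authors' own fold changes, test statistics, p-values and q-values were not used. A symbol was represented by the row with most RefSeq names, then the highest summed FPKM. Log2 ratios were computed without a pseudocount, and differences of 1.5-fold were counted among symbols that reached 1 FPKM in each group. The pooled values allowed no test of their own between groups. The strand of a locus was taken from the order of identifiers, compared with GENCODE release 29. GENCODE transcript sequences served for 3′UTRs, whose lengths came from the annotated exon and stop codon positions of the same release. The functions were tested on simulated data. The members and gene lists were chosen with earlier results of these data known; genes named are members and genes of these lists. Some further genes of these classes are not reported here, and no list count includes them. Alternatives were other pseudocounts, loci, minimum FPKM, folds and scalings. Python 3.11.15, numpy 2.4.6, pandas 2.3.3 and matplotlib 3.10.9 were used.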

Additional observations from a re-analysis of the deposited data

How the results depend on the processing

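No paired analysis was possible because the deposited table holds 1 value per group, and for the same reason the fits with a replicate block and those leaving out each replicate were not run. No log2 ratio of the 6 genes changed sign under the alternatives run, but most of these could not change it. A pseudocount keeps the sign, and the locus with the highest summed FPKM was the main one for all 6 genes. Centring and rescaling only moved ratios up, and VIM, HOXB13 and TMPRSS2 had no other locus. The kept signs are therefore no check of direction. KLK3, at -0.71, was no longer past 1.5-fold with a pseudocount of 1 FPKM (-0.33), when centred on the median of expressed gene symbols (-0.47) or at its opposite-strand locus (-0.057). FOXA1, at -0.85, was short of it with a pseudocount of 1 FPKM (-0.58) and at its opposite-strand locus (-0.36). CDH1, at 1.71, was short of it with a pseudocount of 1 FPKM (0.31) and on its own strand (0.42). TMPRSS2, at 0.51, passed it after centring (0.75). HOXB13 and VIM stayed under 1.5-fold in all settings run. The count of members lower by 1.5-fold, 1, was 0 at a fold of 2, at a minimum FPKM of 10 and with a pseudocount of 1 FPKM, and 2 at a minimum of 0.1 or with both groups above 0. The count higher, 0, was 1 at a minimum of 0.1, with both groups above 0 and after centring. Of all gene symbols, 19.0% were lower and 10.5% higher at a minimum of 0.1, and 20.0% and 13.1% with both groups above 0. At a fold of 2, 7.92% of all expressed symbols were lower, and after centring 12.9% were lower and 3.04% higher. A minimum of 10 was reached by 2 of the 6 genes, and 19.3% of all gene symbols at that level were lower. With a pseudocount of 1 FPKM, 18.3% of all expressed symbols were lower. Centring moves every log2 ratio up by 0.24. FOXA1, GATA2 (-0.72), SOX9 (-0.90), ZEB1 (-0.96) and ENO2 (-0.88) then stayed lower by 1.5-fold, SPDEF (0.62) was higher, and STEAP2, CTNNA1, CTNNB1, CLDN4, SNAI2 and CD44 were short of it. Readings by strand and at the opposite-strand loci, and the levels of genes of other cell types as a reference for low levels, were chosen after seeing the data. The limit first set, an FPKM under 0.1 in both groups, was met by 0 of the 6 genes. At a fold of 2 the list counts were 1 for the lineage factors (SOX9), 1 for the mesenchymal genes (ZEB1), 1 for the neuroendocrine genes (ENO2) and 0 for the androgen-responsive, junction and epithelial genes. The table gives no fragment counts, so the counting error of each value was not computed.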
